A study of Rattus norvegicus with 16 samples.

Results

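Fibrinogen and 7 further acute phase proteins were followed here in kidney cortex of rats injected with ferric nitrilotriacetate (Fe-NTA), an iron chelate that injures the proximal tubule by oxidation. The 10 genes are Fga, Fgb and Fgg, which encode the chains of fibrinogen, the protease inhibitor genes A2m, Serpina3n and Serpina10, the metal and haem carrier genes Cp and Hp, and Lbp and Orm1, whose products bind lipopolysaccharide and small ligands. Every array probe whose gene name is one of these symbols was taken, which gave 14 of 45598 probes, for 10 of 34765 gene names on the array. The 2 Serpina3n probes were kept apart because their values disagree. The genes were chosen by name, and the measured values selected on were those of the 2 Serpina3n probes over the 16 arrays. The list was drawn up with results of these data already known, so the changes under treatment describe the members and are not independent evidence for the group.

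RNA came from male Jcl:SD rats, either BRCA1+/- (written heterozygous from here on) or wild type, with 1 single-colour array per sample. BRCA1 acts in repair of broken DNA, and the labels do not describe the allele further. Heterozygous cortex was measured in controls labelled normal (2 arrays), after 1 week of Fe-NTA (3 arrays) and after 3 weeks (3 arrays), and wild-type cortex in the same numbers, 16 arrays in all. Injections were intraperitoneal and began at 4 weeks of age, 5 a week: 2 of 5 mg iron/kg and 3 of 7 mg iron/kg in the first week, then 10 mg iron/kg throughout weeks 2 and 3, with tissue taken 48 h after the last. The labels give neither age nor vehicle for the controls, so age and treatment cannot be told apart, and between 1 and 3 weeks age, dose and duration change together. Nothing in them says whether replicate arrays hold different rats, and the spread behind each p-value may therefore be technical.

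Fibrinogen is a plasma protein that thrombin turns into the fibrin of clots. Its 3 chains are encoded by neighbouring genes and assembled together in the hepatocyte, the main source of plasma acute phase proteins, where interleukin-6 and related cytokines raise their transcription through STAT3 and C/EBP factors. Rat A2m, Serpina3n, Cp, Hp, Lbp and Orm1 are textbook acute phase genes of the liver. Serpina10 encodes the inhibitor of activated coagulation factor X that acts with protein Z. Injured kidney epithelium is also known to make some of these transcripts, fibrinogen among them.

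The probes that read the fibrinogen chains, printed 5′ to 3′ in the sense direction as the array files give them, are shown because the chains rest on 1 or 2 probes each. The probes of Fga and Fgg and that of Fgb lie on chromosome 2 at chr2:174751982-174752041 (first Fga probe), chr2:174753332-174753391 (second Fga probe), chr2:174732484-174732543 (Fgg), all on the plus strand, and chr2:174768507-174768748 (Fgb, minus strand), in coordinates of the rn4 build that the array headers name. The 60-base Fgb probe covers 242 bases of genome and so crosses an intron, whereas each of the other 3 covers 60 contiguous bases. In the RefSeq gene table the 3 genes follow each other with no gene between them.
Fga, probe A_44_P332328: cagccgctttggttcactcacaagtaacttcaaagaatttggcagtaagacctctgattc
Fga, probe A_44_P1081377: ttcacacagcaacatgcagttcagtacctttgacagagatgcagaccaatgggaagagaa
Fgb, probe A_44_P1044835: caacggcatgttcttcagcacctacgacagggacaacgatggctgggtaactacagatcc
Fgg, probe A_43_P11464: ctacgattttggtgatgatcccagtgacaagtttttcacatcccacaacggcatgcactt
No 2 of the 14 member probes share a run of more than 10 identical bases.

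Promoters of Fga and Fgb are shown because these are the neighbouring genes whose probes moved together. Each is the 250 bases before the transcription start in RefSeq (build GRCr8), with matches to any of 4 motifs on either strand in capitals. The Fga window is chr2:170671919-170672168 (plus strand) and the Fgb window chr2:170700876-170701125 (minus strand).
Fga: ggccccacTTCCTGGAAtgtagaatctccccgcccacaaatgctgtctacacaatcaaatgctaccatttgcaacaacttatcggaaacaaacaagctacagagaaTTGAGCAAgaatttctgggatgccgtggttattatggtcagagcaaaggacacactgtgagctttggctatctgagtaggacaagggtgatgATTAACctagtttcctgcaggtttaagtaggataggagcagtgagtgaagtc
Fgb: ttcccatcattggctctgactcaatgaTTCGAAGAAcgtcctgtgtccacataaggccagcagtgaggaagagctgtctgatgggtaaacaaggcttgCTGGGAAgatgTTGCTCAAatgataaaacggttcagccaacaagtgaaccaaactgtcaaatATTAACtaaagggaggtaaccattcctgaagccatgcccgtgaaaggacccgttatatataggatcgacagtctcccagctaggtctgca
The motifs were TTCNNNGAA, the palindrome bound by STAT factors, CTGGGAA, the core of the interleukin-6 response element, TTGCNNAA for C/EBP factors and GTTAAT, a core of the HNF1 site. Of 33469 promoter windows of this length, 7.67% held TTCNNNGAA, 9.56% CTGGGAA, 9.22% TTGCNNAA and 6.45% GTTAAT. The Fgb window held all 4 motifs, and the Fga window held all but CTGGGAA. In Fga a second RefSeq start lies downstream, and the window before that start holds only the C/EBP and HNF1 matches. RefSeq promoters were matched for 6 of the 10 genes, 7 windows in all. Fgg held 2 matches, both CTGGGAA, Cp and Orm1 held 1 C/EBP match each, and Serpina3n held a TTCNNNGAA match that overlaps a CTGGGAA match on the other strand. A match of letters is a description and not a binding site.

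Levels are given as the scaled log2 signal, log2 of the processed spot intensity minus the 75th percentile of the array, so that 0 is the 75th percentile and 1 unit is a doubling. A scanner flag marks spots well above background, and the lowest signal of any probe with that flag, the detection limit of the array, ran from -3.13 to -1.05. Dim spots can hold substitute values near the lowest value of the array, which ran from -5.48 to -3.38. Values without the flag are therefore not measured levels. Arrays differed in brightness: 32.6% to 60.3% of probes were well above background, with wild-type control replicate 1 (32.6%) and wild-type 1-week replicate 3 (33.0%) the dimmest and wild-type 3-week replicate 3 the brightest. Arrays of 1 group correlated across probes at Pearson r 0.962 to 0.981, but wild-type 1-week replicate 3 at 0.904 and 0.905 with its group. Of the 14 member probes, 10 passed the filter (the flag on all arrays of 1 or more groups) and were tested among 20404 probes with limma. A probe that passed only through the group where it is bright had to differ, so the counts below describe and do not support. Where no array of the controls was well above background the change is a lower bound, written as "at least" a fold: the treated mean is set against the higher of each control array's detection limit and its own value. Treated values enter as given, so the bound is not strict where a treated array was itself not well above background. The adjusted p beside a bound is from limma on the log2 difference with control values as given. It does not test the bound.

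Fga and Fgb were low or not well above background in control cortex and higher after Fe-NTA in both genotypes and at both times, while Fgg stayed under background throughout. Fgb, the beta chain, measured -0.74 and -1.79 in heterozygous controls, 1.88, 1.48 and 2.30 after 1 week and 0.98, 1.99 and 2.40 after 3 weeks. In wild-type cortex Fgb measured -3.13 and -1.42 in controls, 2.38, 2.82 and 2.75 after 1 week and 2.23, 2.36 and 2.29 after 3 weeks. Every treated array lay above every control array of either genotype, and of the 4 control arrays only heterozygous replicate 1 was well above background.

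Fgb rose by 3.15 ± 0.49 on the log2 scale (± SE, 3 against 2 arrays, adjusted p = 0.00141) in heterozygous cortex after 1 week and by 3.05 ± 0.49 (adjusted p = 9.67e-04) after 3 weeks. In wild-type cortex it was at least 15.3-fold higher after 1 week (adjusted p = 1.06e-05) and at least 11.9-fold higher after 3 weeks (adjusted p = 8.19e-05). These 4 calls held when any 1 array was left out. Fgb lay above the 75th percentile of its array on all 12 treated arrays.

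Fga, the alpha chain, whose first probe lies further 5′ in the transcript, measured -2.37 and -2.01 in heterozygous controls, -0.39, -0.46 and -0.39 after 1 week and -0.81, -0.35 and -0.80 after 3 weeks. Wild-type values were -2.72 and -3.20 in controls, 0.57, 0.18 and 0.52 after 1 week and -0.07, -1.65 and -1.10 after 3 weeks. Treated and control arrays did not overlap in either genotype, and the 1-week wild-type arrays were the highest of all. The probe rose by 1.77 ± 0.36 (adjusted p = 0.00897) in heterozygous cortex after 1 week and by 1.53 ± 0.36 (adjusted p = 0.0125) after 3 weeks. In wild-type cortex it was at least 3.44-fold higher after 1 week (adjusted p = 1.96e-05) and at least 1.34-fold higher after 3 weeks (adjusted p = 0.00238). Without heterozygous control replicate 1, the only control array well above background, both heterozygous calls were lost (adjusted p = 0.105 and 0.117). With normexp background correction the heterozygous calls were lost too (adjusted p = 0.22 and 0.278), and the wild-type 3-week change was -0.0075 (adjusted p = 0.979). The wild-type 3-week call of Fga was also lost with dim values set to each array's detection limit (adjusted p = 0.47), and its bound gave no fold above 1 without 3-week replicate 1.

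The second Fga probe, nearer the 3′ end, was dimmer and was not tested, since it was well above background on 7 of 16 arrays but never on all arrays of a group. It measured -4.86 and -2.73 in heterozygous controls, -1.67, -2.47 and -1.76 after 1 week and -2.32, -1.97 and -1.98 after 3 weeks. The wild-type arrays read -3.24 and -2.33 in controls, -1.81, -0.94 and -2.11 after 1 week and -1.73, -2.40 and -2.08 after 3 weeks. Its treated arrays lay above the controls in heterozygous cortex at both times and in wild-type cortex at 1 week only, and overlapped them in wild-type cortex at 3 weeks. Over the 16 arrays, which share their groups and scaling, the Fga probes correlated at Pearson r 0.66 and the first Fga probe with Fgb at 0.85.

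The single Fgg probe, for the gamma chain, was well above background on 0 of 16 arrays. Its values ran from -5.09 to -3.55 in heterozygous cortex and from -5.41 to -2.95 in wild-type cortex, with the highest in a wild-type control. No change of Fgg was detectable with this probe.

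**Figure D1:**
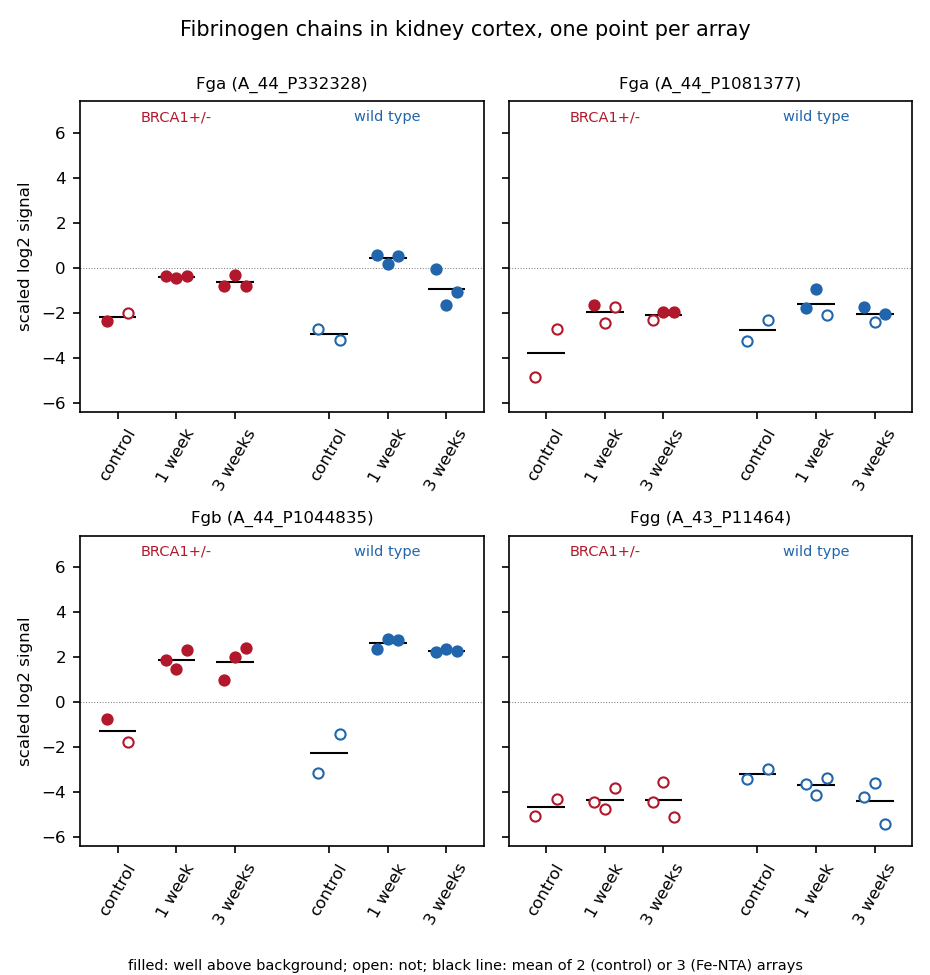
Scaled log2 signal (0 is the 75th percentile of the array) of the fibrinogen probes, 1 point per array, for heterozygous (BRCA1+/-) and wild-type cortex in controls and after 1 and 3 weeks of Fe-NTA; filled points are well above background and lines are group means. Fgb lies at 0.98 or higher on all treated arrays and at -0.74 or lower in controls, and no Fgg point is filled.

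Among the protease inhibitors, Serpina10 was at background in the controls and rose in both genotypes at both times. Serpina10 measured -4.53 and -2.45 in heterozygous controls, 1.40, 0.86 and 0.99 after 1 week and 3.06, 3.25 and 3.41 after 3 weeks. Wild-type cortex gave -3.15 and -2.81 in controls, 1.72, 1.59 and -0.30 after 1 week and 3.03, 2.47 and 1.56 after 3 weeks. All 12 treated arrays and none of the 4 controls were well above background, and the groups did not overlap. It was at least 11.1-fold higher after 1 week (adjusted p = 6.17e-04) and at least 49.4-fold higher after 3 weeks (adjusted p = 1.33e-05) in heterozygous cortex. In wild-type cortex it was at least 5.15-fold higher after 1 week (adjusted p = 2.79e-04) and at least 13.1-fold higher after 3 weeks (adjusted p = 1.37e-04), and these 4 calls held when any 1 array was left out. The wild-type 1-week bound was 8.08-fold without replicate 3.

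A2m encodes alpha-2-macroglobulin, a broad protease trap and the classical strong acute phase protein of the rat. Its probe nearer the 3′ end (A_64_P038872) measured -4.98 and -4.28 in heterozygous controls, -1.14, -2.61 and -2.23 after 1 week and 1.85, 0.80 and 2.04 after 3 weeks. On wild-type arrays it read -3.42 and -3.80 in controls, -0.63, -0.85 and -2.57 after 1 week and 0.71, -1.26 and -1.33 after 3 weeks. No control array was well above background, and of the 1-week arrays 1 of 3 heterozygous and 2 of 3 wild-type arrays were. The 3-week heterozygous arrays were the highest, and all 3 lay above every other array of the series.

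This A2m probe was at least 1.31-fold higher in heterozygous cortex after 1 week (adjusted p = 0.0277) and at least 15.4-fold higher after 3 weeks (adjusted p = 6.17e-05). In wild-type cortex it was at least 1.01-fold higher after 1 week (adjusted p = 0.0203) and at least 1.66-fold higher after 3 weeks (adjusted p = 0.00847). The 1-week bounds are not strict, since treated arrays not well above background are in their means. With dim values at the highest detection limit of the 16 arrays, the 1-week log2 differences were 0 (heterozygous) and 0.21 (wild type). The second A2m probe (A_44_P1364729), whose 60 bases cover 464 bases of genome and cross an intron, followed the first at r 0.94. It measured -2.93 and -4.16 in heterozygous controls, -1.36, -2.29 and -3.31 after 1 week and 1.65, 0.26 and 1.51 after 3 weeks, against -2.08 and -3.74, then -0.94, -1.44 and -2.21, then 0.11, -1.26 and -0.94 in wild-type cortex. It was at least 11.5-fold higher in heterozygous cortex after 3 weeks (adjusted p = 3.95e-04) and at least 1.58-fold higher in wild-type cortex after 3 weeks (adjusted p = 0.0359), and did not pass at 1 week (adjusted p = 0.292 heterozygous, 0.138 wild type).

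The wild-type 1-week bound of A_64_P038872 was 1.54-fold without 1-week replicate 3, without 1-week replicate 1 or 2 or control replicate 2 it gave no fold above 1, and in wild-type cortex at 3 weeks it was 1.05-fold without replicate 1. The heterozygous 1-week bound gave none without replicate 1. The heterozygous 3-week calls of A2m held without any 1 array, but the 1-week and wild-type calls did not all hold. For A_64_P038872 the adjusted p was 0.0634 to 0.214 in heterozygous cortex after 1 week without any 1 of control replicates 1 and 2 and 1-week replicates 1 and 3. In wild-type cortex it was 0.0572 to 0.129 after 1 week without any 1 of control replicates 1 and 2 and 1-week replicates 1 and 2, and 0.0856 after 3 weeks without control replicate 2. For A_44_P1364729 in wild-type cortex after 3 weeks it was 0.0634 to 0.348 without any 1 of control replicate 2 and 3-week replicates 1 and 3. Setting dim values to each array's detection limit ended the same calls, with adjusted p of 0.359 to 0.566.

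Serpina3n, a clade A serpin that inhibits granzyme B in the mouse, was read by 2 probes that did not behave alike, and since that difference chose them no test is given. The first (A_44_P1000653) carries a RefSeq accession and lies at chr6:128469197-128469256, and the second (A_44_P1155688) carries an accession not matched in the RefSeq table and lies downstream at chr6:128470465-128470524 on the same strand (rn4). Their first 30 bases are shown because the values differ by probe.
Serpina3n, probe A_44_P1000653: ctacttagagcaatgcagcctttcttttag
Serpina3n, probe A_44_P1155688: ttttgttgtttgaggaaagggctgtgcata
The full probes share no run of more than 7 bases. The first probe measured -3.45 and -4.29 in heterozygous controls, 0.80, 1.5 and 2.70 after 1 week and 1.5, 1.55 and 5.85 after 3 weeks. Wild-type values were -3.43 and -3.27 in controls, 2.24, 4.43 and -1.26 after 1 week and 0.82, -0.17 and -0.50 after 3 weeks. Controls were not well above background and every treated array lay above them, with wild-type 1-week replicates 2 and 3 the farthest apart within a group.

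As a description, the first Serpina3n probe was at least 16.6-fold higher in heterozygous cortex after 1 week and at least 40.8-fold higher after 3 weeks, and in wild-type cortex at least 8.96-fold and 2.67-fold higher. Wild-type 1-week replicate 3 was itself not well above background, so the 8.96-fold bound is not strict. Single arrays moved these bounds: the heterozygous 3-week bound was 15-fold without replicate 3, 68-fold without replicate 1 and 66.7-fold without replicate 2, and the wild-type 1-week bound was 25.9-fold without replicate 3 and 3.6-fold without replicate 2. The second probe was well above background on all 16 arrays and measured -0.24 and -0.48 in heterozygous controls, -0.36, -0.54 and 0.05 after 1 week and -0.47, -1.0 and 0.66 after 3 weeks. The wild-type arrays read 0.28 and -0.20 in controls, -0.47, 0.43 and 0.55 after 1 week and -0.03, 0.02 and -0.68 after 3 weeks. Its treated and control arrays overlapped in each comparison, with log2 differences between -0.27 and 0.13, and over 16 arrays the 2 probes correlated at r 0.22.

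**Figure D2:**
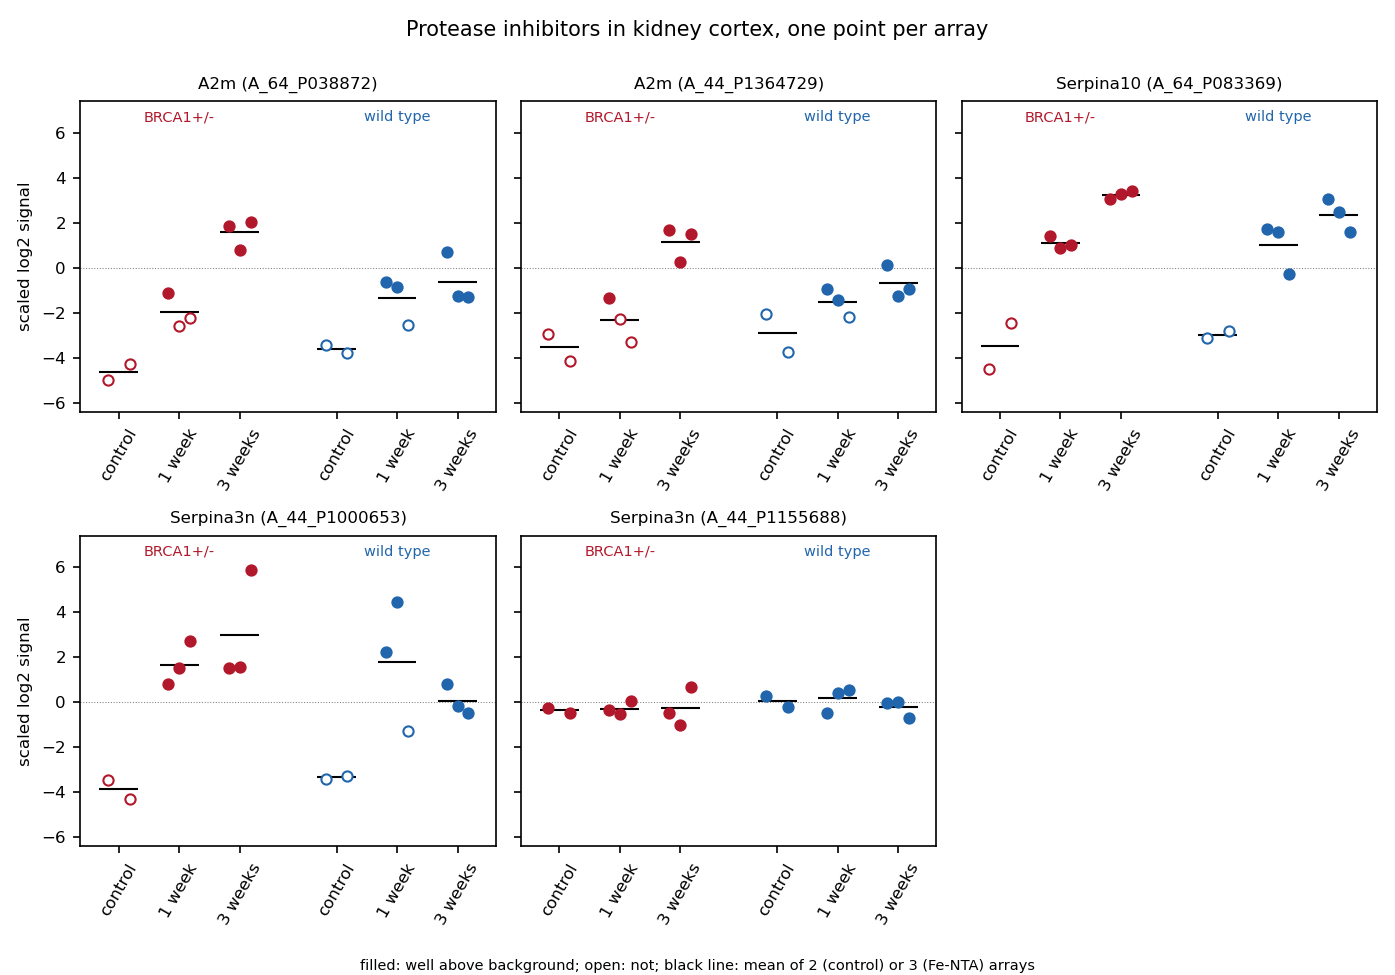
Scaled log2 signal of the protease inhibitor probes, 1 point per array, drawn as for the fibrinogen chains; filled points are well above background and lines are group means. Serpina10 and both A2m probes are highest after 3 weeks in heterozygous cortex, and the Serpina3n probes differ: the first lies at -3.27 or lower in all controls, the second between -1.0 and 0.66 on every array.

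Cp encodes ceruloplasmin, the copper-carrying ferroxidase that oxidises iron for loading onto transferrin, and it rose at 3 weeks in both genotypes on both of its probes. The probe nearer the 3′ end (A_64_P092201) was well above background on all 16 arrays. It measured 1.00 and 1.15 in heterozygous controls, 2.49, 2.14 and 1.19 after 1 week and 3.80, 3.59 and 4.08 after 3 weeks, against 1.18 and 0.67, then 2.21, 0.88 and 0.26, then 3.32, 2.94 and 2.68 in wild-type cortex. The 3-week arrays of both genotypes lay above every control and 1-week array, while wild-type 1-week and control arrays overlapped. It rose by 2.75 ± 0.47 (adjusted p = 0.00176) after 3 weeks in heterozygous cortex and by 2.05 ± 0.47 (adjusted p = 0.0102) in wild-type cortex. After 1 week the differences of 0.87 ± 0.47 (heterozygous, adjusted p = 0.303) and 0.19 ± 0.47 (wild type, 0.806) did not pass. The wild-type 3-week call was lost without control replicate 2 (adjusted p = 0.115).

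The second Cp probe (A_44_P1089221, 60 bases over 417 bases of genome, crossing an intron) followed the first at r 0.91. It measured -1.44 and -1.48 in heterozygous controls, -0.46, 0.37 and -0.40 after 1 week and 1.79, 1.35 and 1.33 after 3 weeks. Wild-type cortex gave -1.55 and -2.60 in controls, -0.17, -1.19 and -0.89 after 1 week and 0.68, 0.57 and 0.41 after 3 weeks. Levels stepped up at each time in both genotypes with no overlap between controls and treated arrays. It rose by 1.29 ± 0.37 (adjusted p = 0.0443) after 1 week and by 2.94 ± 0.37 (adjusted p = 1.8e-04) after 3 weeks in heterozygous cortex, and was at least 1.53-fold (adjusted p = 0.0138) and at least 3.76-fold higher (adjusted p = 4.26e-04) in wild-type cortex. The 1-week calls were fragile: the heterozygous one was lost without either control (adjusted p = 0.199 and 0.203), without any of its 1-week arrays (0.0559 to 0.125) and without any of the wild-type 3-week arrays or heterozygous 3-week replicates 2 or 3 (0.056 to 0.0618). The wild-type one was lost without control replicate 2 (adjusted p = 0.231) and 1-week replicate 1 (0.0509).

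Hp, which encodes the haemoglobin binder haptoglobin, was well above background on 1 of 16 arrays. That array was wild-type 3-week replicate 3, the brightest of the series, at -2.70, and the others ran from -5.25 to -3.36. Orm1, which encodes the alpha-1-acid glycoprotein that binds drugs and lipids in plasma, was well above background on 0 of 16 arrays, with values from -4.95 to -2.54 in heterozygous and from -4.6 to -3.04 in wild-type cortex. No change of Hp or Orm1 was detectable with these probes.

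Lbp encodes the lipopolysaccharide-binding protein, which passes bacterial lipopolysaccharide to CD14, and it was highest at 3 weeks. It measured -4.58 and -3.34 in heterozygous controls, -1.31, -2.48 and -2.41 after 1 week and 0.77, 0.34 and -0.50 after 3 weeks. On wild-type arrays it read -3.14 and -3.57 in controls, -1.29, -2.45 and -3.05 after 1 week and -0.87, -0.20 and -1.0 after 3 weeks. All 3-week arrays and 1 of 3 of the 1-week arrays of each genotype were well above background, and no control was. Lbp was at least 6.01-fold higher in heterozygous cortex after 3 weeks (adjusted p = 2.26e-04) and at least 1.59-fold higher in wild-type cortex (adjusted p = 0.00473). After 1 week it was at least 1.25-fold higher in heterozygous cortex (adjusted p = 0.0453) and did not pass in wild-type cortex (adjusted p = 0.154). The 1.25-fold bound is not strict, since only 1 of the 3 treated arrays was well above background. With dim values at the highest detection limit of the 16 arrays, that log2 difference was 0. The heterozygous 1-week call was lost without any 1 of 11 arrays, among them both of its controls (adjusted p = 0.391 and 0.0573), and the wild-type 3-week call without control replicate 2 (0.0615), with dim values at each array's detection limit (0.313) and with normexp (0.719). The heterozygous 1-week bound gave no fold above 1 without control replicate 1 or 1-week replicate 1.

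**Figure D3:**
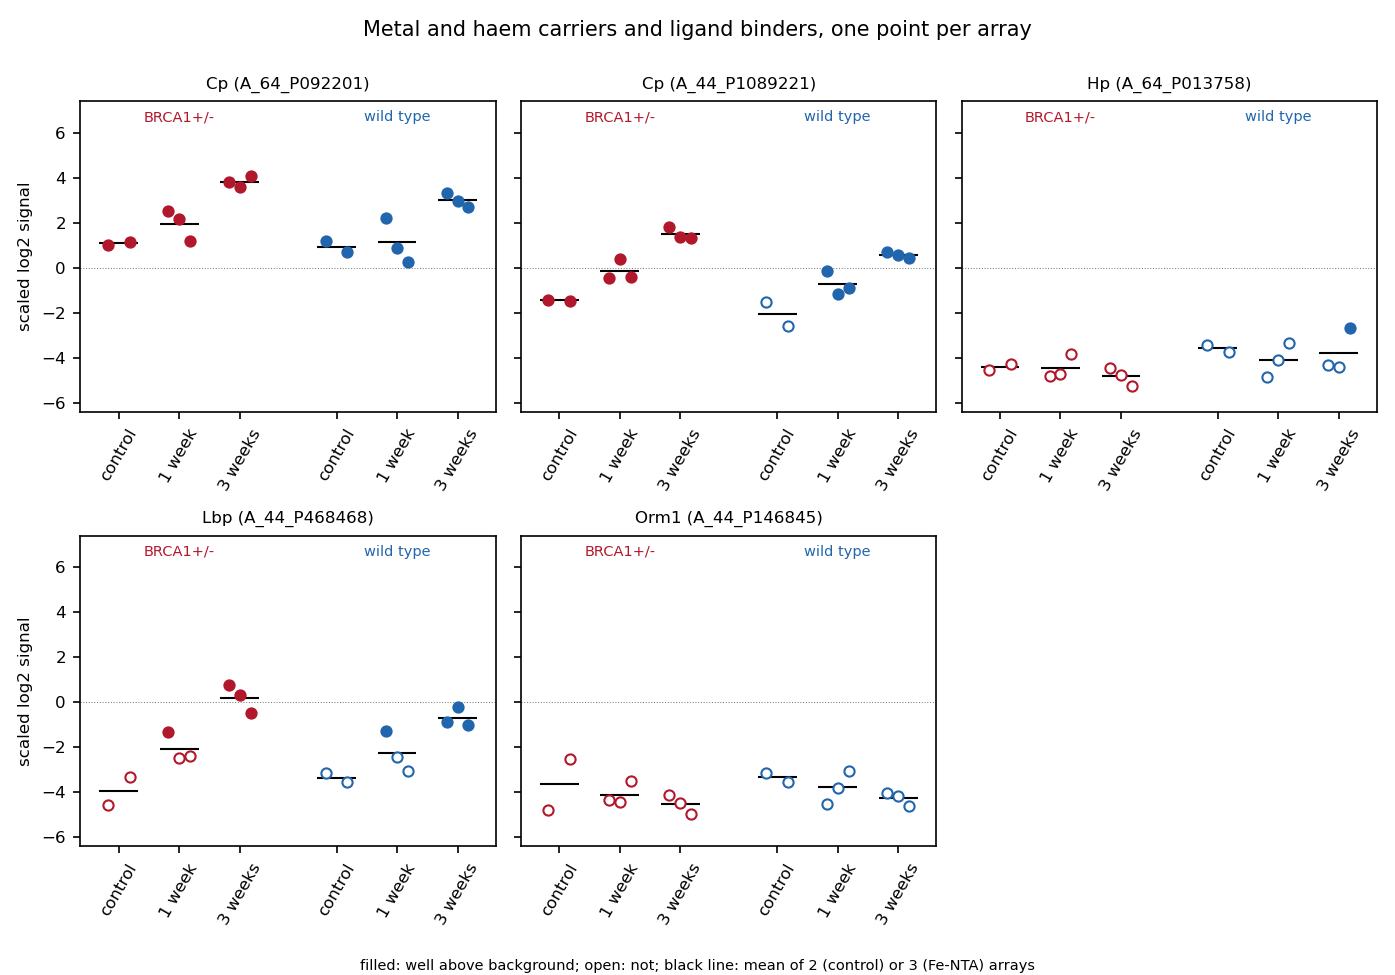
Scaled log2 signal of the Cp, Hp, Lbp and Orm1 probes, 1 point per array, drawn as for the fibrinogen chains; filled points are well above background and lines are group means. Both Cp probes and Lbp are highest after 3 weeks, no Orm1 point is filled, and the only filled Hp point is wild-type 3-week replicate 3 at -2.70.

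Outside Serpina3n, 8 member probes were tested. All of them but the Cp probes passed the filter only through treated groups, which favoured a rise. In heterozygous cortex 6 of 8 were called higher after 1 week, where 4.37% of all 20404 probes were called higher and 3.07% lower, and 8 of 8 after 3 weeks, where the shares were 9.03% and 6.25%. In wild-type cortex 5 of 8 were called higher after 1 week (13.3% of all probes higher, 14.3% lower) and 8 of 8 after 3 weeks (8.68% higher, 5.7% lower). Of the 8, 0 were called lower in any of these 4 comparisons, adjusted or unadjusted. Within slides 1 and 2, where each genotype has 1 control array that is assumed to vary like the other groups, fewer of the 8 were called. The share of all probes called was smaller there too. The median log2 difference of the 8 probes was 1.84 and 3.61 (heterozygous, 1 and 3 weeks) and 1.82 and 2.65 (wild type, 1 and 3 weeks), beside medians of all probes of -0.019, 0.013, -0.010 and -0.015. Without the 2 dimmest arrays, a choice made after seeing the data, the counts were 6, 8, 6 and 8.

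**Figure D4:**
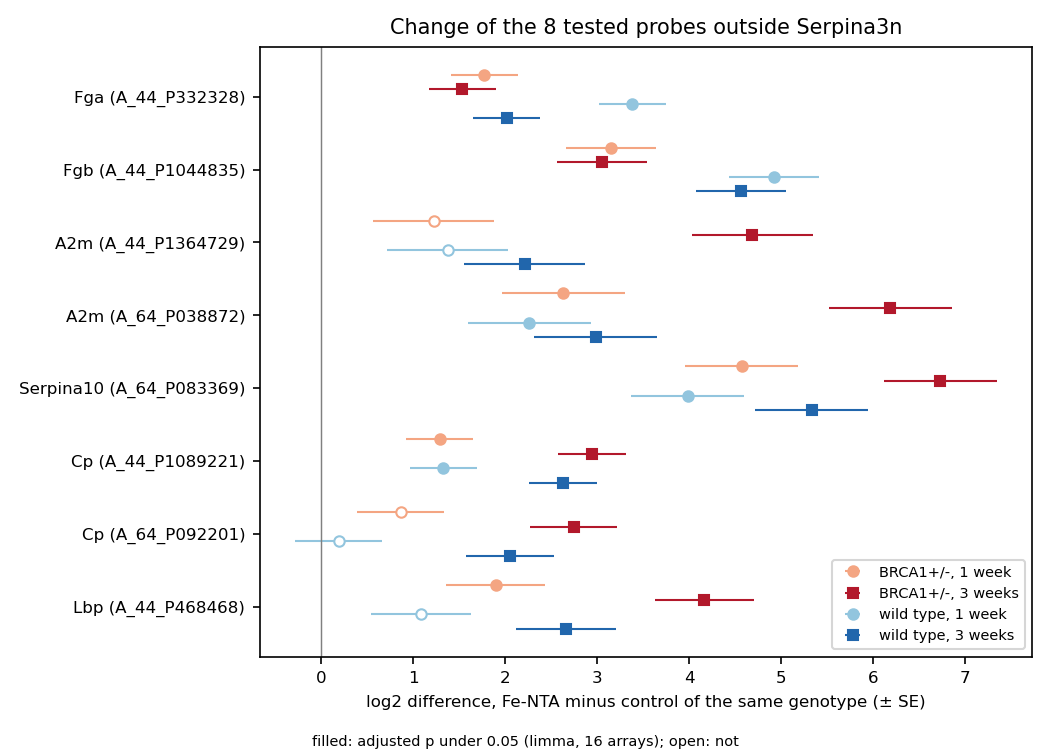
Log2 difference of each tested probe outside Serpina3n, Fe-NTA minus controls of the same genotype, with SE from limma over 16 arrays; filled symbols passed an adjusted p of 0.05. All 32 differences lie above 0, which the filter favoured for all but the Cp probes, and both times of a genotype share its controls. The share of all probes above 0 was not counted. Where controls were not well above background the difference rests in part on values under the detection limit, and the text gives a lower bound in its place.

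Between 1 and 3 weeks calls were made for A2m, Cp and Fga. In heterozygous cortex 3 of 8 probes were called higher at 3 weeks than at 1 week (0.201% of all probes higher, 0.147% lower) and 0 lower: A2m by 3.55 ± 0.60 (A_64_P038872, adjusted p = 0.0188) and 3.46 ± 0.59 (A_44_P1364729, adjusted p = 0.02) and Cp A_44_P1089221 by 1.65 ± 0.33 (adjusted p = 0.0436). In wild-type cortex both Cp probes were called higher at 3 weeks (5.27% of all), by 1.30 ± 0.33 (A_44_P1089221, adjusted p = 0.024) and 1.86 ± 0.42 (A_64_P092201, adjusted p = 0.0148), and Fga was called lower (2.88% of all), by -1.36 ± 0.33 (adjusted p = 0.0192). Fgb differed by -0.10 ± 0.43 in heterozygous cortex (95% interval -1.02 to 0.83) and by -0.36 ± 0.43 in wild-type cortex (-1.29 to 0.57), and Fga in heterozygous cortex by -0.24 ± 0.33 (-0.93 to 0.46). Lbp was higher at 3 weeks by 2.27 ± 0.48 in heterozygous and 1.58 ± 0.48 in wild-type cortex without passing the threshold (adjusted p = 0.0603 and 0.0588), with no overlap between the times. Serpina10 did not pass in heterozygous (2.16 ± 0.55, adjusted p = 0.123) or wild-type cortex (1.35 ± 0.55, adjusted p = 0.152), nor did A2m in wild-type cortex (0.72 ± 0.60 and 0.84 ± 0.59, adjusted p = 0.492 and 0.415), where the arrays of the times overlapped.

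These differences between times depended on single arrays. The heterozygous count of 3 was 0 without 1-week replicate 3, 3-week replicate 1 or 3-week replicate 3, and 5 and 6 without wild-type 1-week replicates 1 and 3. The wild-type count of 3 was 4 without 1-week replicate 1, 1 without 1-week replicate 3, 3-week replicate 1 or 3-week replicate 3, and 0 without 3-week replicate 2. Fga, the only probe called lower, kept its call without wild-type 1-week replicate 3 (log2 -1.31, adjusted p = 0.0473) and lost it without 3-week replicate 2 (0.105) or 3 (0.0755).

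No member probe differed between heterozygous and wild-type cortex past the threshold in limma in any condition. The count was 0 of 8 in controls (0% of all probes called), 0 of 8 after 1 week (0.451% of all higher, 0.0686% lower) and 0 of 8 after 3 weeks (0% of all), against 0, 1 and 3 of 8 at an unadjusted p under 0.05, where 4.89%, 12.8% and 5.87% of all probes had such a p. After 3 weeks A2m was higher in heterozygous cortex by 2.19 ± 0.60 (A_64_P038872, 95% interval 0.91 to 3.46, adjusted p = 0.765) and 1.84 ± 0.59 (A_44_P1364729, 0.58 to 3.09, adjusted p = 0.81), with all 3 heterozygous arrays above all 3 wild-type arrays. The groups also did not overlap, with the heterozygous arrays higher, for both Cp probes (0.94 ± 0.33 and 0.84 ± 0.42) and Serpina10 (0.89 ± 0.55), each at an adjusted p of 0.813. After 1 week the tested Fga probe and Fgb were lower in heterozygous cortex, again without passing: Fga by -0.84 ± 0.33 (adjusted p = 0.294) and Fgb by -0.76 ± 0.43 (adjusted p = 0.493), with no overlap in either. The second Fga probe, which was not tested, differed by -0.35 with overlapping arrays, and Fgg was under background. The share of all probes without overlap between the genotypes was not counted, so these separations are descriptions and not a difference of genotype.

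The treatment effect was also compared between genotypes as an interaction, and limma called 0 of 8 probes at 1 week and 0 of 8 at 3 weeks (0% of all probes at both), against 2 and 3 of 8 at an unadjusted p under 0.05, where 7.79% and 4.97% of all probes had such a p. These values rest in part on controls under the detection limit, with 0 of 2 wild-type control arrays well above background for Fga, Fgb and A2m, so their sizes are not measured on all sides. At 1 week the log2 change was smaller in heterozygous cortex for Fga by -1.61 ± 0.52 (95% interval -2.71 to -0.51, adjusted p = 0.441) and for Fgb by -1.77 ± 0.69 (-3.24 to -0.31, adjusted p = 0.542), of which the controls alone differed by 0.77 and 1.01, heterozygous minus wild type. At 3 weeks it was larger for A2m by 3.20 ± 0.95 (A_64_P038872, 1.19 to 5.22, adjusted p = 0.844) and 2.47 ± 0.93 (A_44_P1364729, 0.49 to 4.45, adjusted p = 0.965), and smaller for Fgb by -1.51 ± 0.69 (-2.98 to -0.05, adjusted p = 0.965). For A2m no control array of either genotype was well above background, and their values differed by -1.02 and -0.64. The control values of A_64_P038872 lay near the lowest value of each array. That lowest value was -5.08 and -4.36 in heterozygous and -3.49 and -3.90 in wild-type controls. The heterozygous control arrays were brighter than the wild-type ones (48.2% and 40.7% against 32.6% and 36.1% of probes well above background), and the part of brightness in these differences was not tested.

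Other acute phase genes did not all move with the members. Of 37 further positive acute phase genes 17 were tested, and the call counts were 5 higher and 1 lower in heterozygous cortex after 1 week, 8 and 2 after 3 weeks, and in wild-type cortex 6 and 4 at 1 week, then 7 and 3 at 3 weeks. The share of all 16002 genes called higher, with 1 probe per gene, was 4.26%, 9.25%, 12.9% and 8.76%, and the share called lower 3.2%, 6.41%, 14.4% and 5.6%, in that order. The median log2 difference of the 17 genes lay between -0.19 and 0.13, beside -0.035 to 0.013 for all genes. Complement C4a rose by 2.06 ± 0.31 (adjusted p = 0.0013) and 4.43 ± 0.31 (adjusted p = 1.46e-06) in heterozygous cortex at the 2 times and by 2.45 ± 0.31 (7.01e-05) and 4.14 ± 0.31 (4.43e-06) in wild-type cortex. Mbl1, the mannose-binding lectin A gene, was lower in all 4 comparisons, by at least 3.64-fold and 4.10-fold in heterozygous cortex and at least 1.98-fold and 2.99-fold in wild-type cortex after 1 and 3 weeks (adjusted p from 4.6e-05 to 0.00118). Lcn2, the siderophore-binding lipocalin, which the injured tubule list also holds, rose by 5.73 ± 0.57 and 6.36 ± 0.57 in heterozygous cortex (adjusted p = 7.49e-05 and 1.04e-05). In wild-type cortex Lcn2 was at least 63.1-fold and 35.7-fold higher after 1 and 3 weeks (adjusted p = 4.35e-06 and 3.3e-05). Crp, Itih4 and Hpx, liver acute phase genes like Hp and Orm1, were well above background on 0 of 16 arrays on the probe used, and these 3 were named after their values were seen.

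**Figure D5:**
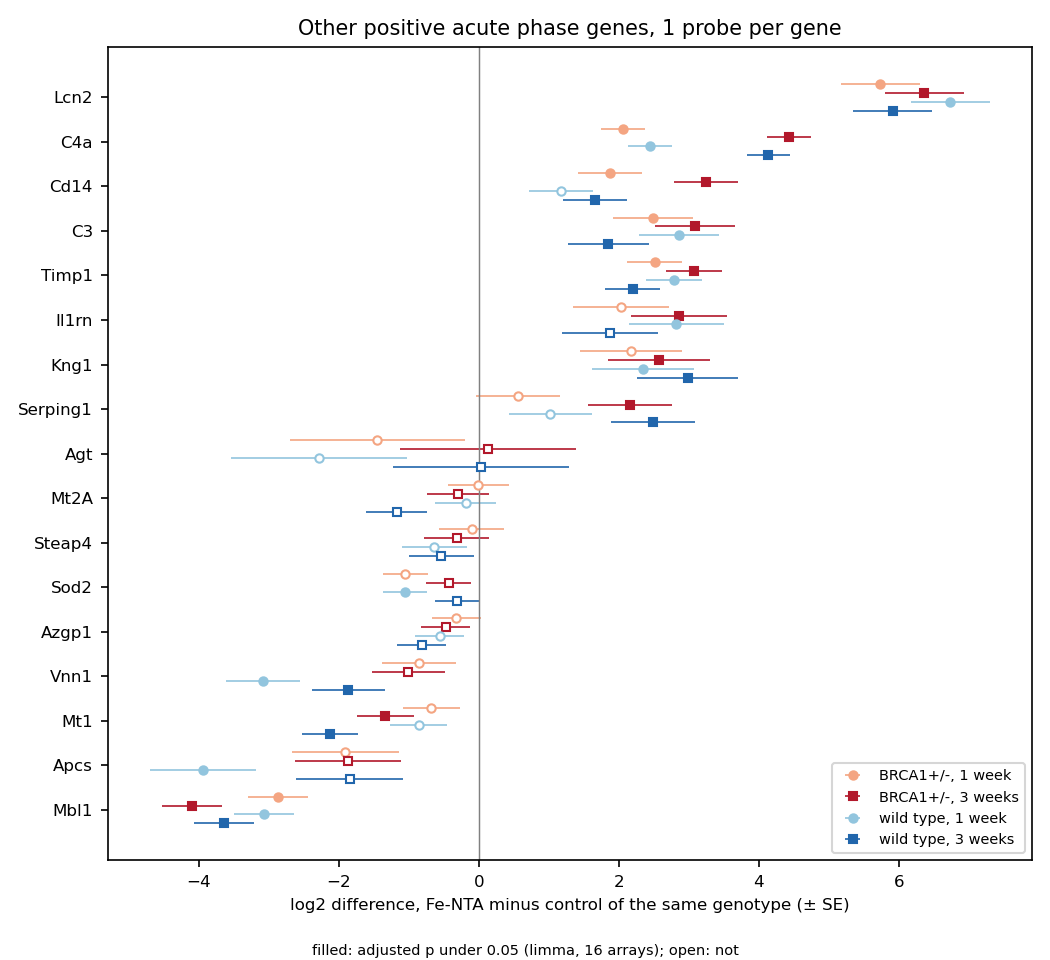
Log2 difference, Fe-NTA minus controls of the same genotype (± SE, limma over 16 arrays), of the 17 tested positive acute phase genes outside the members, ordered by the heterozygous 3-week difference; filled symbols passed an adjusted p of 0.05. Lcn2 and C4a lie to the right of 0 and Mbl1 to the left in all 4 comparisons, with filled symbols throughout.

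Genes of the signalling that raises acute phase proteins were read from a list of 38, of which 27 were tested. The counts were 3 higher and 0 lower in heterozygous cortex after 1 week, 8 and 1 after 3 weeks, and in wild-type cortex 8 and 1 at 1 week, then 6 and 0 at 3 weeks. Of all genes 4.26%, 9.25%, 12.9% and 8.76% were called higher in that order, and 3.2%, 6.41%, 14.4% and 5.6% lower. Socs3, the feedback inhibitor induced by STAT3, rose by 3.06 ± 0.50 (adjusted p = 0.002) and 4.66 ± 0.50 (adjusted p = 5.19e-05) in heterozygous cortex and was at least 9.26-fold (adjusted p = 3e-05) and 5.77-fold higher (adjusted p = 3.81e-04) in wild-type cortex after 1 and 3 weeks. Osmr, the oncostatin M receptor, was at least 1.53-fold higher in heterozygous cortex after 1 week (adjusted p = 0.00386), and Il6st, the shared receptor chain gp130, rose by 1.86 ± 0.32 in wild-type cortex after 3 weeks (adjusted p = 0.00186). Hnf4a, a hepatocyte and proximal tubule transcription factor, fell by 2.08 on the log2 scale in wild-type cortex after 1 week (adjusted p = 7.96e-04). Il6 itself was well above background on 0 of 16 arrays.

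Of 36 coagulation and fibrinolysis genes 19 were tested, and 1 was called higher and 1 lower in heterozygous cortex after 1 week, 4 and 2 after 3 weeks, and in wild-type cortex 4 and 6 at 1 week, then 5 and 2 at 3 weeks. At 1 week in heterozygous cortex this was 5.26% each way, beside 4.26% of all genes higher and 3.2% lower. In the other 3 comparisons 9.25%, 12.9% and 8.76% of all genes were called higher, and 6.41%, 14.4% and 5.6% lower. Anxa2, a plasminogen receptor subunit, rose by 2.61 ± 0.46 (adjusted p = 0.00335) in heterozygous cortex after 1 week, and in wild-type cortex by 3.97 ± 0.46 (3.16e-05) at 1 week and 2.67 ± 0.46 (0.00173) at 3 weeks. Proc, the zymogen of the anticoagulant activated protein C, fell by 2.22 on the log2 scale in heterozygous cortex after 1 week (adjusted p = 0.00404) and fell by 4.18 and fell by 2.94 on that scale in wild-type cortex after 1 and 3 weeks (adjusted p = 9.46e-06 and 3.89e-04).

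Of 20 genes for binding partners of fibrinogen, lipopolysaccharide and haemoglobin 13 were tested, with 4 higher and 1 lower in heterozygous cortex after 1 week, 6 and 1 after 3 weeks, and 4 and 0 in wild-type cortex at each time. The shares of all genes called higher were 4.26%, 9.25%, 12.9% and 8.76% in that order, and lower 3.2%, 6.41%, 14.4% and 5.6%. Icam1, an adhesion receptor that binds fibrinogen, rose by 1.66 ± 0.35 and 2.41 ± 0.35 in heterozygous cortex (adjusted p = 0.0105 and 5.45e-04) and was at least 4.6-fold and 4.74-fold higher in wild-type cortex after 1 and 3 weeks (1.86e-05 and 8.16e-05). Cd14, the receptor to which LBP hands lipopolysaccharide, was at least 2.40-fold higher in heterozygous cortex after 3 weeks (adjusted p = 4.28e-04). Cd14 was also called higher in heterozygous cortex after 1 week and wild-type cortex after 3 weeks (adjusted p = 0.0233 and 0.0261). In those 2 comparisons its bound gave no fold above 1, and it did not pass in wild-type cortex after 1 week (0.0722).

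Of 18 negative acute phase genes, which fall in liver during inflammation, 7 were tested. In heterozygous cortex 0 were called after 1 week and 2 higher after 3 weeks, and in wild-type cortex 1 was called lower after 1 week and 2 higher after 3 weeks. Over all genes the shares higher were 4.26%, 9.25%, 12.9% and 8.76% in that order, and lower 3.2%, 6.41%, 14.4% and 5.6%. Tf, the transferrin gene, rose by 3.41 ± 0.57 in heterozygous cortex after 3 weeks (adjusted p = 0.00142) and was at least 3.86-fold higher in wild-type cortex (adjusted p = 0.0202). Of 11 further clade A serpin genes 2 were tested, Serpina4 and Serpina11, and limma called neither in any of the 4 comparisons (adjusted p from 0.121 to 0.989).

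In tissue RNA, more cells of a type and more RNA per cell cannot be told apart, so marker lists are given beside the members. Of 24 hepatocyte markers with a probe 16, Alb, Apoa1, Ttr and Ahsg among them, were well above background on 0 of 16 arrays, and 3, Apoc3, Kng1 and Hpd, were on all 16. The number well above background per array was 5 in heterozygous controls, 3 to 4 after 1 week and 4 after 3 weeks, and in wild-type cortex 3 to 4, 3 to 4 and 4 to 7. The mean scaled log2 signal of the list ran from -3.77 to -2.70 over the treated heterozygous arrays and from -3.31 to -2.75 in their controls, against -3.39 to -2.0 over treated wild-type arrays and -2.73 to -2.07 in their controls. Of 5 hepatocyte markers tested, 0 were called higher and 2 lower at 1 week in heterozygous cortex, and 1 and 3 at 3 weeks. In wild-type cortex the counts were 1 and 3, then 2 and 2. Of 9 macrophage markers tested 6 and 8 were called higher at 1 and 3 weeks in heterozygous cortex, and 8 and 7 in wild-type cortex. Among all genes, 4.26% and 9.25% were called higher at these times in heterozygous cortex, and 12.9% and 8.76% in wild-type cortex. Called lower were 3.2% and 6.41% in heterozygous and 14.4% and 5.6% in wild-type cortex. Injured tubule markers were called higher for 6 and 9 of 11 in heterozygous and 8 and 7 of 11 in wild-type cortex, and proximal tubule markers lower for 7 and 6 of 15 and for 14 and 6 of 15, with 1 higher in wild-type cortex after 3 weeks. Erythroid markers were called lower for 7 and 5 of 9 in heterozygous and 7 and 6 of 9 in wild-type cortex. Fibroblast markers were called higher for 3 and 6 of 8 in heterozygous and 5 and 5 of 8 in wild-type cortex. Of the 3 platelet and 2 neutrophil markers tested limma called 0 in any of the 4 comparisons, and the mean platelet level ran from -3.48 to -2.86 on treated and -3.25 to -3.01 on control heterozygous arrays. Proximal tubule markers, which define the labelled tissue, were well above background for 15 of 15 genes on every control array. The mean macrophage level was 0.13 to 0.88 on treated against -1.39 to -1.10 on control heterozygous arrays, and 0.04 to 0.90 on treated against -1.17 to -0.93 on control wild-type arrays, and its part in the changes of the members was not tested.

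The genes whose pattern over the 16 arrays was most like the mean of the 3 fibrinogen chains were Acsl5, Actn1, Irak3, Parp9 and Vim, at Pearson r of 0.963, 0.962, 0.962, 0.958 and 0.954 among 11354 candidates. Vim encodes the intermediate filament vimentin, Actn1 an actin crosslinker, Acsl5 an acyl-CoA synthetase and Irak3 an inhibitor of Toll-like receptor signalling. With Fgg, which never rose above background, left out of the mean, a choice made after seeing the data, the 5 were Irak3, Emp3, Mfge8, Anxa5 and Acsl5, at r of 0.965 to 0.953. These values are descriptions over arrays that share 6 groups and 1 scaling.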

How the data were processed

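Per the file headers, the scanner files give the intensity of every spot in a single-colour Cy3 scan read by Agilent Feature Extraction 10.7 (version also in the submitters' processing notes): a processed signal, background-subtracted and detrended with substitute values for dim spots, and the raw mean and local background intensity, with no scaling across arrays. Flags and probe annotation are other columns, also per the file headers. The authors also deposited a table of log2 values, whose column medians ran from -2.88 to -2.17; set against the scanner files it equals the scaled log2 signal used here (median difference -0.0063), so scale, centring and direction are settled by the data.

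Control spots (4259 of 62976) and outlier spots were left out, spots of a probe were averaged, and each processed signal was divided by the 75th percentile of the array's non-control probes before taking log2. Probes with a value on all arrays (45483 of 45598) and flagged well above background on all arrays of 1 or more groups (20404) were fitted with limma 3.58.1 in R 4.3.3: 1 mean per group over 16 arrays, eBayes (10 residual and 4.9 prior degrees of freedom, median residual SD 0.394), two-sided, Benjamini-Hochberg adjusted over all probes tested, called under 0.05. Every adjusted p is from this fit. The fit was tested on simulated data. For genes outside the members the probe with the highest mean stands for the gene. Every member probe is named. Of each list the 2 genes with the smallest p per treatment comparison may be named, and of likeness the 5 highest r. Symbols came from RefSeq where accessions matched (21229 probes, 2233 renamed). Figures used matplotlib 3.10.9 in Python 3.11.15.

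The members, the gene lists, the motifs and the tests were chosen with earlier results of these data known. The lists were positive and negative acute phase, coagulation, clade A serpins, interleukin signalling, binding partners and cell type markers. Of the marker lists, hepatocyte, macrophage, neutrophil, platelet, erythroid, fibroblast, proximal tubule and injured tubule are reported. Lists of endothelium, podocyte, thick limb and distal tubule, collecting duct, and adrenal and adipose markers were also fitted and are not reported. With 2 or 3 arrays a group, precision is limited by their number. Replicate numbers showed no sign of pairing the arrays (same-number correlations of residuals from -0.316 to 0.433, median 0.022). Different-number correlations ran from -0.5 to 0.379, median -0.022. With groups this small the check cannot exclude a pairing. The 2 slides each held both genotypes and all conditions. Alternatives changed the background correction, dim values, filter, scaling, source of values, probe choice, samples fitted, slide, replicate block and, left out in turn, each array.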

Additional observations from a re-analysis of the deposited data

How the results depend on the processing

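Of 956 recomputed treatment changes of the 8 tested probes 837 kept their side of the threshold. A further 116 lost their call without turning negative, and 2 gained one. Among the 116, A2m A_64_P038872 and Lbp in heterozygous cortex after 1 week fell to 0 with dim values at the highest detection limit. In all 7 changed sign, all in wild-type cortex, and 1 of these had been called: Fga in wild-type cortex after 3 weeks, at -0.0075 (adjusted p = 0.979) with normexp background correction. With single arrays left out 473 of 512 kept their side. The 512, part of the 956, also hold fits that left out an array of neither group compared. Leaving out such an array cannot move the log2 difference, only its error and adjusted p. Both shares therefore overstate how stable the calls were to the arrays compared. Calls of Fgb and Serpina10 were lost only within single slides. The causes were not tested, except that single slides and the strictest filter hold fewer arrays or probes.

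Counts of called probes, of 8 unless stated, moved as follows. For heterozygous 1 week (6 as reported) the count was 2 with normexp and with dim values at the highest detection limit (added after seeing the data), 3 with no filter and with quantile normalization, 0 of 1 with probes well above background on all 16 arrays, 1 and 0 within slides 1 and 2, and 2 to 6 with 1 array left out. For heterozygous 3 weeks (8) it was 1 of 1 with the strict filter and 5 within each slide, and 7 to 8 with 1 array left out. For wild-type 1 week (5) it was 3 with normexp, either detection limit, no filter and either slide, 3 of 6 with 1 probe per gene, 0 of 1 with the strict filter, and 3 to 5 with 1 array left out. For wild-type 3 weeks (8) it was 4 with normexp and either detection limit, 1 of 1 with the strict filter, 4 and 0 within slides 1 and 2, and 4 to 8 with 1 array left out. For 3 weeks against 1 week in heterozygous cortex (3) it was 6 with dim values at each array's limit, 0 with no filter, the strict filter, quantile normalization and either slide, 1 of 6 with 1 probe per gene, 5 without the 2 dimmest arrays and 0 to 6 with 1 array left out. In wild-type cortex (3) it was 0 with no filter, only the groups compared and either slide, 1 with the strict filter and without the 2 dimmest arrays (added after seeing the data), and 0 to 4 with 1 array left out.

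With the replicate block, whose numbers showed no sign of pairing, the counts were 6, 8, 6 and 8 for the 4 treatment comparisons (heterozygous first), 5 and 4 for the times and 0 for genotype and interactions. Of the 16 arrays, 4 correlated best with their own number. Bounds with single arrays left out were also added after seeing the data. The genotype and interaction counts were 0 under every alternative run. With dim values at each array's limit the median of all probes shifted to -0.15 (wild type, 3 weeks), and without the filter to -0.33 (wild type, 1 week), -0.34 (wild type, 3 weeks) and -0.14 (heterozygous, 3 weeks). No control array was well above background for A2m, Lbp and Serpina10, and 1 of 4 was for Fgb and the first Fga probe. The part of weak signal in the lost calls was not tested.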
